A study of Rattus norvegicus with 6 samples.

Results

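The circadian clock genes are 10 genes, Bmal1, Clock, Npas2, Per1, Per2, Per3, Cry1, Nr1d1, Nr1d2 and Dbp, read here in the colons of 6 rats. They were chosen by name, and their probes are those whose accession matched one of these genes in RefSeq, where Bmal1 also goes by Arntl. All 10 genes had at least 1 probe, and all 17 of their probes are among the 23997 probes of the deposited table, which covers 12413 named genes. RNA of the colon was read on 1 single-color Agilent array per rat, in 3 rats of the congenic strain S.LEW(10)x12x2x3x5 (here C1, C2 and C3, the S.LEW congenic rats) and in 3 Dahl salt-sensitive rats (here S1, S2 and S3, the S rats). S rats are inbred and become hypertensive, and the congenic rats differ from them by a short stretch of Lewis chromosome 10. Every rat was male, ate a diet of 0.3% NaCl, was injected at 6 weeks of age, and again a week later, with 15 mg per kg of the colon carcinogen azoxymethane (AOM), and was 30 weeks old at harvest. There was no group without AOM. The rats lived under a 12-h light/dark cycle with an S rat and a congenic rat in each cage, and the time of day at which each colon was taken is not given in the sources used here.

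The clock of a mammalian cell is a loop of transcription that takes about a day. BMAL1 pairs with CLOCK or NPAS2 and switches on genes that carry an E-box, among them the Per and Cry genes, whose proteins return to block the pair, and the genes of the REV-ERB nuclear receptors, Nr1d1 and Nr1d2, which repress Bmal1 through sites called ROREs. DBP is a transcription factor driven by the same E-boxes that passes the rhythm on to output genes through sites called D-boxes. In a cycling tissue the messages of Bmal1 and Npas2 therefore peak at about the opposite time of day to those of Dbp and Nr1d1, and Cry1 lags the Per genes. The colon has its own clock, and motility and the turnover of its epithelium vary over the day.

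Elements of this loop were sought in the promoters of these genes. RefSeq (GRCr8 assembly) start sites were in hand for 9 of the 10 members, 11 entries in all, and the 250 bases before each start were searched on both strands for the E-box CACGTG, a variant E-box CACGTT, the D-boxes TTATGTAA and TTACGTAA, and the RORE letters ANTAGGTNA. Of the 9 members, 3 held a match, Bmal1, Per2 and Nr1d1. Clock, Npas2, Per1, Per3, Nr1d2 and Dbp held none, and sequence outside these 250 bases was not searched. Over all 33469 promoters, CACGTG was found in 5.59%, CACGTT in 4.07%, a D-box in 0.932% and the RORE letters in 1.86%. The share of promoters with any of these matches was not counted. The sequences below show matches, with the matched letters in capitals, and whether they act in the colon was not tested. Bmal1 held a pair of RORE matches within 70 bases of its start. Per2 held a D-box and a variant E-box, and Nr1d1 a variant E-box at its first listed start and an E-box at its second. Ciart, a repressor of CLOCK and BMAL1 that is not a member and was picked after its values were seen, held 3 E-boxes. Of other clock genes outside the members, Tef held an E-box, Cry2 a variant E-box and Nfil3 no match.

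Bmal1, chr1:176766258-176766327, plus strand: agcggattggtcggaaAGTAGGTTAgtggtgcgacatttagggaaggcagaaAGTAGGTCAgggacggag

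Per2, chr9:99497044-99497193, minus strand: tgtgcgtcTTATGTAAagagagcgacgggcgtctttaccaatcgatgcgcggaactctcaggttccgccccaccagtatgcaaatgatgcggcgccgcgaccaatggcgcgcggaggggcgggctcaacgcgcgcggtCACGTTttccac

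Nr1d1, first start, chr10:84231963-84232012, minus strand: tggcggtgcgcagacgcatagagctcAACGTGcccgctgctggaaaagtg

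Nr1d1, second start, chr10:84229605-84229654, minus strand: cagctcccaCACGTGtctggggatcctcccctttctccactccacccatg

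Ciart, chr2:186112247-186112346, minus strand: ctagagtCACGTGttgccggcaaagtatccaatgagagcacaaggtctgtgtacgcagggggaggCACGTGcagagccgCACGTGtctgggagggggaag

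Values are log2 signals of the authors' quantile-normalized table, so that a difference of 1 is a 2-fold change, and no probe's level is set against that of another probe. Differences are congenic minus S, tested with limma over all 23997 probes with Benjamini-Hochberg adjustment. No probe of the table had an adjusted p under 0.05 (the smallest was 0.0843), while 3115 probes, 13.0%, had an unadjusted p under 0.05. That count rests on the S rats, since without S2 limma gave 5553 probes with an adjusted p under 0.05 and without S1 41, though none of the 10 clock genes was among them. With 3 rats against 3, an exact permutation test of a single gene cannot give a p below 0.10. All 8 epithelial marker genes were well above background on all 6 arrays. The array of S2 was closer to the congenic arrays (r = 0.967 to 0.976 across probes) than to S3 (0.937) or S1 (0.900). Lymphocyte genes stood apart in S1 and S3. Lck, a kinase of T cells, had log2 signals of 11.25 in S1 and 11.17 in S3, against 5.92 in S2 and 5.74 to 6.20 in the congenic rats. Ptprc, which encodes the leukocyte antigen CD45, had 14.26 in S1 and 13.85 in S3, against 6.72 in S2 and 6.80 to 7.51 in the congenic rats. All 8 epithelial markers had higher means in the congenic rats. With each probe centred on its mean over the 6 rats, their mean ran from 0.10 to 0.59 in the congenic rats and from -0.58 to -0.16 in the S rats. By the scanner headers, slide 1 carried C1 and the 3 S rats, and slide 2 carried C2 and C3.

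Counting genes that changed 2-fold at an unadjusted limma p under 0.05, 1 of the 10 members was called, Cry1, and it was lower in the congenic rats. Over all probes 5.58% were called at these limits, 3.23% higher and 2.34% lower. The members' median log2 fold change was 0.23, against 0.03 over the 12413 genes, each read by its brightest probe, and 6 of the 10 were above 0. Cry1 was also the only member whose strains did not overlap, a state that 17.7% of all probes showed (5.33% with the congenic rats lower). The adjusted p of the 10 members ran from 0.316 to 0.874.

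**Figure D1:**
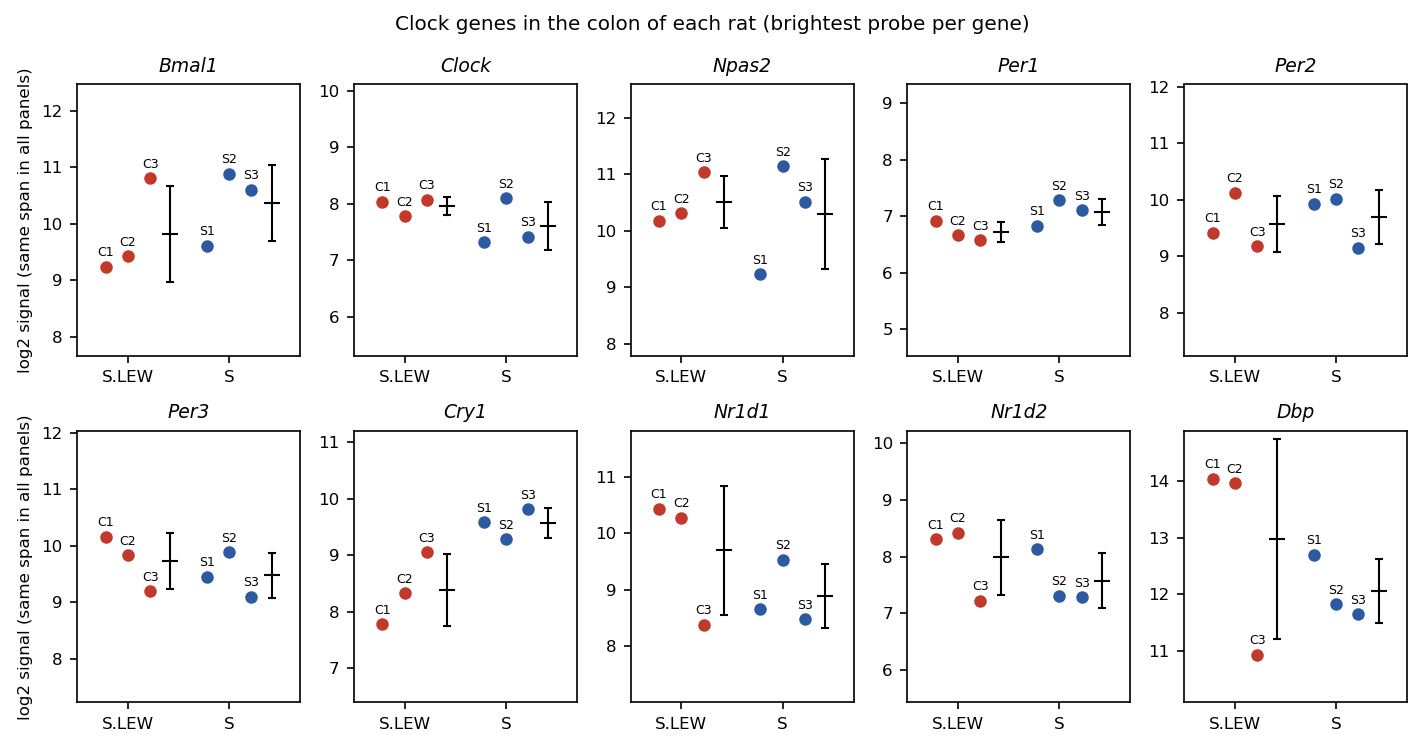
Log2 signal (vertical axis) of each clock gene at its brightest probe in the 3 S.LEW congenic rats (red) and the 3 S rats (blue), with the strain mean and SD as black bars. All panels span the same number of log2 units. The strains are apart at Cry1, while at Dbp, Nr1d1, Nr1d2 and Bmal1 rat C3 stands away from C1 and C2.

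In the positive arm, Bmal1 encodes the partner without which the loop stops. Its log2 signal at the brighter probe was 9.24 in C1, 9.42 in C2, 10.80 in C3, 9.61 in S1, 10.88 in S2 and 10.60 in S3. High values were thus found in 1 congenic rat and 2 S rats, and the strains overlapped. The means were 9.82 ± 0.86 (SD, n = 3) in the congenic strain and 10.37 ± 0.67 (SD, n = 3) in S, a log2 fold change of -0.54 ± 0.52 (SE, limma adjusted p = 0.617). The second Bmal1 probe ordered the 6 rats the same way, with 7.94, 8.08 and 9.49 in C1, C2 and C3 and 8.25, 9.56 and 9.13 in S1, S2 and S3. The log2 fold change of Bmal1 was -0.26 without C1, -0.34 without C2 and -1.04 without C3, and it was -0.92 without S1 and -0.29 without S2, with limma adjusted p values of 0.605 or above.

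Npas2 can take the place of CLOCK. At its brighter probe it had log2 signals of 10.18, 10.31 and 11.04 in C1, C2 and C3. In S1, S2 and S3 they were 9.23, 11.15 and 10.52. The range within the S rats was 3.80-fold, wider than that in the congenic rats (1.81-fold), and S1 was the lowest of all. Its log2 fold change was 0.21 ± 0.52 (SE, limma adjusted p = 0.853). The sign turned with the slide as a block and without C3 or S1. The dimmer Npas2 probe gave a log2 fold change of 0.17 ± 0.38 (SE). It measured 7.31, 6.69 and 7.30 in C1, C2 and C3 and 6.41, 7.68 and 6.72 in S1, S2 and S3. Clock, whose protein is the usual partner of BMAL1, ran at its brighter probe from 7.32 in S1 to 8.10 in S2, with a log2 fold change of 0.35 ± 0.26 (SE). Its dimmer probe gave -0.15 ± 0.55 (SE) and was not well above background in C2.

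In the negative arm, the 3 Per genes, whose proteins carry the delayed inhibition, did not pass the test at any of their probes, and the strains overlapped in each gene. Per1 ran from 6.58 to 6.92 in the congenic rats and from 6.83 to 7.28 in the S rats, and Per2 from 9.18 to 10.13 and from 9.15 to 10.02. Their log2 fold changes were -0.35 ± 0.20 (SE) and -0.12 ± 0.35 (SE). Per3, read by 3 probes, had log2 fold changes of 0.25, 0.46 and 0.77, and at all 3 probes S3 and C3 were the lowest of the 6 rats. At its brightest probe Per3 measured 10.16 in C1, 9.83 in C2, 9.20 in C3, 9.45 in S1, 9.89 in S2 and 9.10 in S3.

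Cry1, a direct repressor of the CLOCK and BMAL1 pair, had a log2 signal of 7.78 in C1, 8.33 in C2 and 9.06 in C3, against 9.59 in S1, 9.29 in S2 and 9.82 in S3. Every congenic rat was below every S rat, although C3 and S2 lay close to each other. The means were 8.39 ± 0.64 (SD, n = 3) and 9.56 ± 0.26 (SD, n = 3), a log2 fold change of -1.17 ± 0.35 (SE, limma unadjusted p = 0.0145, adjusted p = 0.316), or 2.25-fold lower in the congenic strain. The exact permutation test, two-sided, gave the smallest p possible, 0.10. With the slide as a block, and within slide 1 alone, the log2 fold change was -1.78, a value that in both fits rests on C1, the congenic rat with the lowest Cry1, since slide 2 carried no S rat. Without S3 it was -1.05 and the unadjusted p of limma was 0.0513, and without C1 it was -0.87, short of 2-fold. Without S2 it was -1.31. S2, whose Lck and Ptprc signals were near those of the congenic rats, had the lowest Cry1 of the S rats (9.29), against 9.06 in C3. The part of the lymphocyte and epithelial genes in the Cry1 difference was not tested. In bulk tissue, fewer cells of a type and less RNA per cell cannot be told apart.

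Among the genes that BMAL1 switches on and that act back on it or pass the rhythm on, Nr1d1, Nr1d2 and Dbp had higher means in the congenic strain, but none passed the test. Nr1d1 had log2 signals of 10.43, 10.27 and 8.38 in C1, C2 and C3 and of 8.65, 9.53 and 8.48 in S1, S2 and S3. C1 and C2 were above every S rat, and C3 was below every S rat. The log2 fold change was 0.81 ± 0.60 (SE, limma adjusted p = 0.540). Nr1d2, its paralog, had the same layout in the congenic rats, with 8.31, 8.42 and 7.22, while the S rats had 8.13, 7.31 and 7.28, and its log2 fold change was 0.41 ± 0.41 (SE).

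Dbp had the widest range of the members. At the brightest of its 3 probes it measured 14.04 in C1, 13.96 in C2, 10.93 in C3, 12.70 in S1, 11.82 in S2 and 11.65 in S3. C1 was thus 8.67-fold above C3, a rat of its own strain, while the S rats spanned 2.07-fold and lay between these extremes. The means were 12.98 ± 1.77 (SD, n = 3) and 12.06 ± 0.56 (SD, n = 3), a log2 fold change of 0.92 ± 0.86 (SE, limma adjusted p = 0.613). The other 2 probes gave 0.80 and 0.78, with C3 the lowest and C1 the highest rat at each. Leaving out a congenic rat moved these values in either direction. For Dbp the log2 fold change was 0.39 without C1, 0.43 without C2 and 1.94 without C3, and for Nr1d1 it was 0.44, 0.51 and 1.46. Without C3 both passed the unadjusted limits of limma (adjusted p = 0.467 and 0.516). Within slide 1, and with the slide as a block, they were 1.99 and 1.54, values that rest on C1 alone for the congenic strain.

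**Figure D2:**
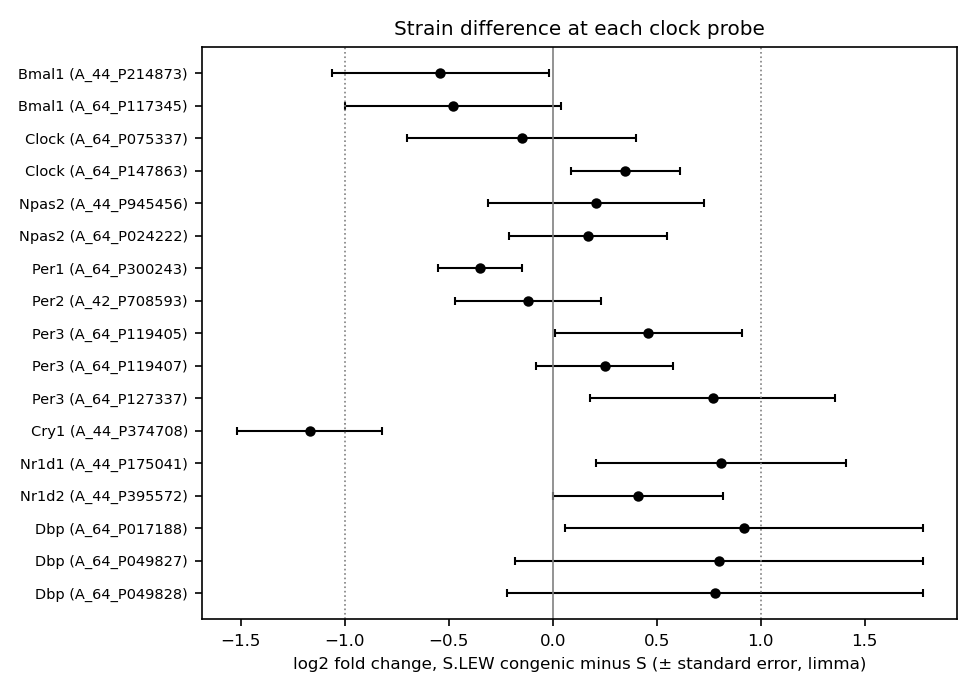
Log2 fold change between strains (horizontal axis, S.LEW congenic minus S) at each of the 17 clock probes, with the standard error of limma as bars and dotted lines at a 2-fold change. Cry1, at -1.17, is the only probe past a dotted line, and the 3 Dbp probes have the widest bars.

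Taking the positive arm (Bmal1, Clock and Npas2) against the other 7 members, each gene centred on its mean over the 6 rats, the difference between the arms was -0.61, -0.67 and 1.13 in C1, C2 and C3 and -0.79, 0.55 and 0.39 in S1, S2 and S3. Each strain held rats on either side of 0. The mean was -0.05 ± 1.03 (SD, n = 3) over the congenic rats and 0.05 ± 0.73 (SD, n = 3) over the S rats, so that the strains differed by -0.10 on the log2 scale, less than the pooled SD of 0.89. The positive arm itself differed by 0.01 between strains, the negative arm by -0.35, the REV-ERB genes by 0.61 and Dbp by 0.92. Within the negative arm the 3 Per genes together differed by -0.07.

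The clock genes varied between rats of the same strain. The within-strain SD of the log2 signal was 1.32 for Dbp, 0.90 for Nr1d1 and 0.77 for Bmal1 and for Npas2, against a median of 0.34 over all probes. For Dbp it was above that of 97.7% of the probes, for Nr1d1 92.1%, for Bmal1 87.9% and for Per1 22.4%. At their brightest probes 8 of the 10 members had a within-strain SD above the median probe, and the exceptions were Per1 and Clock.

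**Figure D3:**
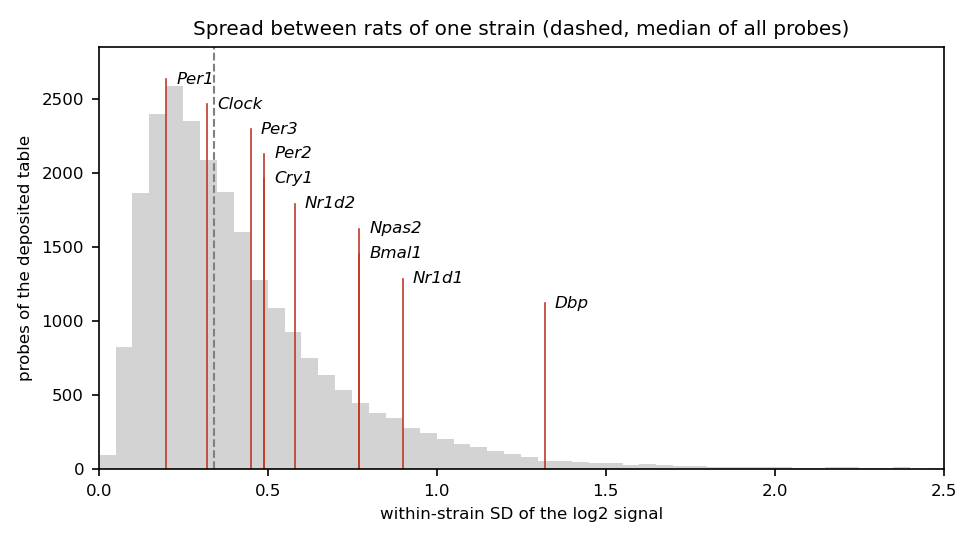
Number of probes (vertical axis) by the within-strain SD of their log2 signal (horizontal axis), pooled over both strains, with red lines at the brightest probe of each clock gene, whose heights serve only to place the names. Dbp at 1.32 and Nr1d1 at 0.90 lie in the upper tail, and Per1 and Clock lie below the dashed median of 0.34. The axis ends at 2.5, beyond which 44 probes lie.

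The rat that departed most from its strain mates at the clock genes was C3. It was over 2-fold from both C1 and C2, on the same side, at 4 of the 10 members, higher at Bmal1 and lower at Nr1d1, Nr1d2 and Dbp, whereas over all probes C3 was so placed at 2.61%. S2, in contrast, was over 2-fold from both other S rats at 16.1% of all probes but at none of the 10 members. S1 was so placed at 1 member, Npas2, against 4.37% of all probes. At the dimmer Npas2 probe S1 (6.41) was less than 2-fold from S3 (6.72). C1, C2 and S3 were at none, against 2.20%, 3.00% and 0.533%. Over the whole array C3 correlated with C1 at 0.978 and with C2 at 0.974. Of its spots 78.5% were well above background, between the shares of C2 (73.8%) and C1 (80.9%). Its epithelial markers, centred, averaged 0.10, against 0.59 in C1 and 0.50 in C2. Its enteric neuron markers averaged 1.06, against 0.47 and -0.22, and its lymphoid markers -1.74, against -2.09 and -1.62. The part of these tissues in the clock values of C3 was not tested. In C3 compared with C1, Bmal1 was 2.95-fold higher and Cry1 2.43-fold higher, while Dbp was 8.67-fold, Nr1d1 4.14-fold and Nr1d2 2.13-fold lower. C1 and C2 differed by 1.06-fold at Dbp, 1.11-fold at Nr1d1 and 1.13-fold at Bmal1. Single rats are compared here, and no test was made of these folds.

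The 3 rats with the highest Bmal1 were S2, C3 and S3, and the same 3 had the lowest Dbp and Nr1d2. They also had the highest Npas2 at its brighter probe, but at its dimmer probe C1 (7.31) was above S3 (6.72). At their brightest probes the other 6 members did not divide the rats this way. The 3 lowest rats were C3, S3 and S1 for Nr1d1 and S3, C3 and S1 for Per3. The 3 highest were S2, C3 and C1 for Clock, S2, S3 and C1 for Per1, C2, S2 and S1 for Per2 and the 3 S rats for Cry1. The dimmer Per3 probes did divide them this way, with S3, C3 and S2 the 3 lowest. The 3 rats come from both strains and from both slides.

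**Figure D4:**
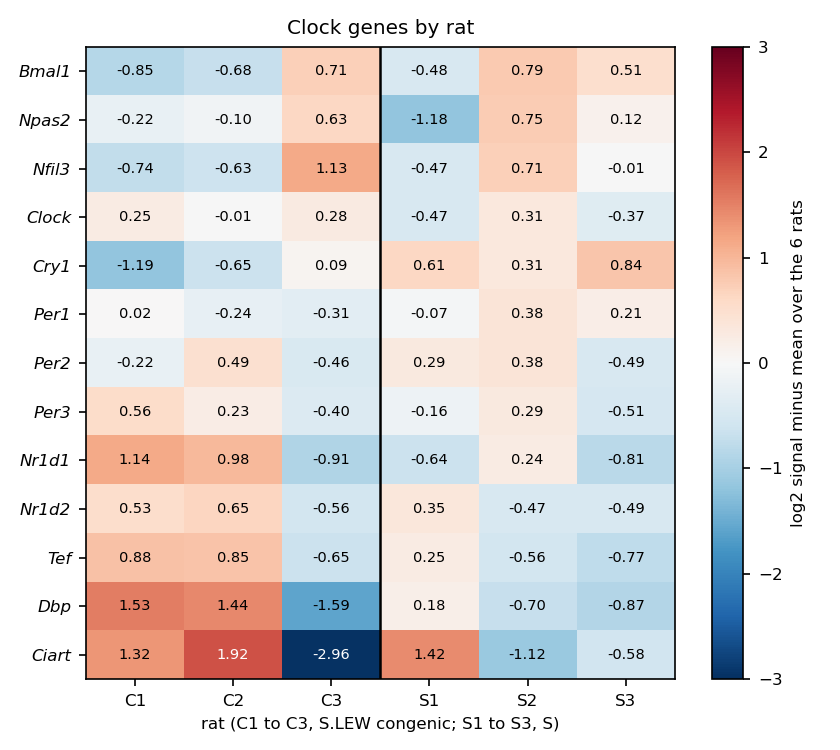
Log2 signal minus the mean over the 6 rats (color and printed values) for the 10 members and for Nfil3, Tef and Ciart at their brightest probes, by rat, with a line between the strains. Bmal1, Npas2 and Nfil3 are above 0 in C3 and S2, where Dbp, Nr1d2, Tef and Ciart are below 0, and the reverse holds in C1 and C2. Nr1d1 (0.24) and Per3 (0.29) are above 0 in S2, and Nfil3 is at -0.01 in S3.

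Of 28 further genes of the clock, its kinases and ligases and its outputs, 19 had a probe in the table. None of the 19 changed 2-fold at an unadjusted p under 0.05, against 5.58% of all probes, and their median log2 fold change was -0.05. Cry2, the second cryptochrome, had log2 signals of 8.93, 8.67 and 8.82 in the congenic rats and of 7.99, 8.56 and 8.29 in the S rats. It was therefore higher in every congenic rat, the opposite of Cry1, with a log2 fold change of 0.53 ± 0.21 (SE, limma unadjusted p = 0.0424, adjusted p = 0.377). Cry2 did not pass with any rat but S2 left out, with log2 fold changes from 0.39 without S1 to 0.60 without C2, nor with the slide as a block (0.65) or with scaling to the 75th percentile (0.54).

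Tef and Ciart, whose values ran most like those of Dbp, and Nfil3, most like Bmal1, were picked from that list after their values were seen. Tef, a factor of the same family as Dbp, had log2 signals of 10.21, 10.18 and 8.68 in C1, C2 and C3 and of 9.58, 8.77 and 8.56 in S1, S2 and S3. Ciart, whose promoter with its 3 E-boxes is printed above, ran from 9.69 in C2 to 4.81 in C3, where it was not well above background, and measured 9.09 in C1, 9.19 in S1, 6.65 in S2 and 7.19 in S3. Nfil3, which represses through the D-boxes that Dbp and Tef activate, went the other way, with 7.43, 7.54 and 9.30 in the congenic rats and 7.70, 8.88 and 8.16 in the S rats. As with Dbp, the rats low in Tef and Ciart were C3, S2 and S3, the rats high in Nfil3. The other genes of the list did not divide the rats this way at their brightest probes. The 3 lowest rats were S3, S1 and C3 for Usp2, S3, C3 and C2 for Bhlhe40, and C3, C1 and S2 for Wee1. Tef, Ciart and Nfil3 did not pass the test between strains. Their log2 fold changes were 0.72 ± 0.49 (SE), 0.19 ± 1.37 (SE) and -0.16 ± 0.57 (SE). Tef was at 1.23 without C3, where it passed the unadjusted limits (limma adjusted p = 0.516), and at 0.46 without C1 and 0.48 without C2.

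Likeness of pattern was measured across the table as the root mean square difference between centred log2 values over the 6 rats, a description in which many genes can come close with so few arrays. The gene nearest to Dbp among the other 12412 was Tef (0.53), and Nr1d1 was at rank 3 (0.63), Nr1d2 at rank 10 (0.70) and Ciart at rank 25 (0.81). Outside the lists the nearest were Tmed6 (0.54), Il22ra1 (0.65) and Or1ad6 (0.67). These were dim probes too, well above background on 4, 5 and 5 of the 6 arrays. The other Dbp probes lay at 0.19 and 0.22 from the brightest. For Bmal1, Nfil3 was at rank 5 (0.28) and Npas2 at rank 114 (0.48), while its own second probe lay at 0.06. The nearest genes outside the lists were Or2aj4b (0.19), Vcsa2 (0.19) and Lama1 (0.24), dim probes that were well above background on 4 of the 6 arrays each.

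Glucocorticoids, which rise and fall over the day and with stress, act on Per1 and other genes, and 10 genes of that response were read beside the clock. At an unadjusted p under 0.05, 1 was higher and 1 lower in the congenic strain, against 13.0% of all probes, and their median log2 fold change was 0.02. Zbtb16, a zinc finger gene induced by glucocorticoids, had a log2 fold change of 1.62 ± 0.24 (SE, limma adjusted p = 0.197), with 2 of 3 congenic and 1 of 3 S arrays well above background. This dim probe gave 0.43 with normexp background correction and 1.38 with scaling to the 75th percentile. Tsc22d3, which encodes the leucine zipper GILZ, measured 11.82, 12.17 and 11.98 in the congenic rats and 12.38, 12.89 and 12.72 in the S rats. This gave a log2 fold change of -0.67 ± 0.21 (SE, limma adjusted p = 0.327), and did not pass without C1 (-0.59), C3 (-0.66) or S3 (-0.64). Ddit4, an inhibitor of mTOR signaling, had -1.04 ± 0.46 (SE) and was highest in S1 (11.98) and S3 (11.48), the rats with high Lck and Ptprc, whose part in it was not tested. Its log2 fold change was -1.54 without S2 (limma adjusted p = 0.0178) and -0.66 without S1. The mean of the list over its 10 genes was -0.04, 0.19 and 0.00 in C1, C2 and C3 and -0.07, -0.07 and -0.02 in S1, S2 and S3, a mean in which genes that went opposite ways offset each other.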

How the data were processed

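The authors scanned 1-color Agilent arrays, 1 per rat, and Feature Extraction 11.0.1.1 (submitters' processing notes) gave each spot a background-corrected intensity, deposited per array. Quantile normalization and a filter for detection in 3 or more arrays were also the authors' steps, and their deposited log2 table of 23997 probes was used as it is. On every array it correlated at 0.9999 or above with the scanner values quantile-normalized here, so scale and direction are those of the scanner. Accessions were matched to RefSeq genes of GRCr8 (17997 of 30367 probes). The array's design build differs, so no gene coordinates are given beyond those of the RefSeq promoter sequences. The test between strains was that of limma 3.58.1 (R 4.3.3), without covariates, after a trial on simulated data. A gene with several probes was counted by its brightest. A probe was called well above background where the majority of its spots was, ties included. The number of arrays limits the precision. The p-values of limma set a strain difference against the spread between rats of the same strain, moderated over all probes.

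The members, the gene lists and the motifs were chosen with earlier results of these data known. Named genes were all members, Cry2 and list genes with an unadjusted p under 0.05, 3 glucocorticoid response genes by p, and the 3 genes nearest in pattern to Bmal1 and to Dbp. Some genes of the lists are not reported here. The muscle, adipocyte and enteric neuron markers are in the closing section. The labels do not say whether equal rat numbers mark cage mates, and the rats were taken as unpaired. Deviations from the strain means correlated at -0.02, -0.13 and -0.06 between rats of equal number, which cannot settle whether they were paired. Alternatives are given in the closing section.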

Additional observations from a re-analysis of the deposited data

How the results depend on the processing

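The number of arrays and the dimness of probes such as those of Ciart and Zbtb16 limit these values. Among members past 2-fold at an unadjusted p under 0.05, Cry1 was the 1 member called in the fits not named here. The count was 0 with normexp on the median signal, added after the data were seen, where Cry1 fell just short of 2-fold, and it was 3 (Cry1, Dbp and Nr1d1) with array weights and within slide 1, where C1 is the only congenic rat. With a rat left out in turn it ran from 0 (without C1 or S3) to 3 (without C3, again Cry1, Dbp and Nr1d1). With array weights 6 members had an adjusted p under 0.05, but so had 12474 of all 23997 probes, and the estimation of the weights stopped before it converged. In every other fit, those with a rat left out included, no member had an adjusted p under 0.05. The difference between the arms, -0.10, ran from -0.69 (without C3) to 0.21 (without C2) with a rat left out and was -0.66 with the slide as a block, all within the spread between rats. Cry1 stayed below 0 in all fits, from -1.78 to -0.87. Npas2 turned to -0.12 with the slide as a block, to -0.12 within slide 1 and to -0.03 with array weights, and Per2 to 0.47 with array weights. With a rat left out, the log2 fold change ran from -0.33 to 0.64 for Npas2, from -0.40 to 0.07 for Per2, from -0.72 to 1.72 for Ciart and from -0.76 to 0.17 for Nfil3. The cause of these changes was not tested. With the replicate block the count of members called was 1 and Cry1 kept a log2 fold change of -1.17, while Cry2 (unadjusted p = 0.111 from limma) no longer passed, and no other gene reported here changed its call. The planned normexp fit on the mean signal was not run because the files hold the median signal.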

Other observations

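The other marker lists moved between rats as well. On the log2 scale and centred on the 6 rats, the 6 smooth muscle markers with a probe averaged 0.36 to 0.56 in the congenic rats, -1.59 in S1, 0.70 in S2 and -0.44 in S3. The 6 skeletal muscle markers averaged -1.22 to -0.58 in the congenic rats, -0.09 in S1, 1.67 in S2 and 0.91 in S3. Their strain differences went both ways, with 4 lower and 2 higher in the congenic strain. The higher ones, Ckm (log2 fold change 0.15) and Acta1 (0.42), were well above background on all 6 arrays. Myh2 ran from 2.71 in S1 to 10.94 in S2. Mybpc1 and Myh1 had no congenic array well above background and were at least 7.15-fold and at least 2.09-fold lower in the congenic strain, taken against the lowest signal well above background on each array or the probe's own where higher (limma adjusted p = 0.116 and 0.0843). The 4 adipocyte markers averaged 0.14 to 0.93 in the congenic rats and -0.84 to -0.29 in the S rats. The 4 enteric neuron markers averaged 0.47, -0.22 and 1.06 in C1, C2 and C3 and -1.43, 0.84 and -0.72 in S1, S2 and S3. The part of these tissues in the clock gene values was not tested.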
